A study of Homo sapiens with 8 samples.

Results

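The genes described here repair DNA breaks, cross-links and replication errors: 36 genes of homologous recombination, the Fanconi anaemia pathway, the damage checkpoint, mismatch repair and end joining. They were chosen by gene symbol, as all probes of the array whose annotated symbol, or its current synonym, is one of the 36. These genes were picked with earlier results of these data known. Of 15550 genes with a named probe, 30 were among them, with 40 probes. BRCA2, BRIP1, XRCC2, FANCA, FANCF and FANCD2 were not analysed here. ATM, the kinase that signals breaks, and RAD50 and NBN, subunits of the complex that holds broken ends, had no probe detected on at least 4 of the 8 arrays and were not tested. That left 27 genes, with 32 tested probes. Levels and changes refer to the brightest tested probe of a gene, on the log2 scale of the normalised intensity.

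Homologous recombination copies the intact sister chromatid to mend a break, and so acts mainly in S and G2 phase. The Fanconi pathway unhooks cross-links between the strands and hands the resulting break to recombination, mismatch repair removes bases misincorporated in replication, and end joining ligates broken ends without a template through the cell cycle. Many recombination and Fanconi genes are transcribed in late G1 and S phase under E2F transcription factors.

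All 8 arrays are of A549 cells, a human lung adenocarcinoma line, that carry a short hairpin RNA against GLP (shGLP), the histone methyltransferase encoded by EHMT1. The cells were grown in phenol red-free medium with charcoal-stripped serum, and total RNA was taken at 0 h or at 24 h of 100 nM dexamethasone, a synthetic glucocorticoid, with 4 arrays at each time. No array without the hairpin and none at 24 h without hormone was analysed here, so 24 h in culture and the hormone cannot be told apart. Whether the 0 h cells had vehicle, and whether the hairpin line is 1 clone or a pool, is not given in the sources used here. Replicates 1 and 2 lay on one slide and replicates 3 and 4 on another. By the last letter of the array names, the 0 h arrays lay at B and F and the 24 h arrays at D and H on both slides. Array position and time therefore cannot be told apart, with or without a block. The sources used here do not say whether replicates were separate cultures, so p-values measure the spread between these samples, which may be technical. Between 13897 and 14797 of 22011 probes were detected per array. The probe of EHMT1 differed by 0.36 ± 0.13 (SE) and was not called (limma adjusted p = 0.130), with 1 of the 4 arrays at 0 h and each at 24 h detecting it. Of 9 named epithelial and A549 markers, 8 were detected on all 8 arrays. CPS1, KRT8, CDH1 and KRT18 of that list were higher at 24 h, by 1.06, 0.92, 1.09 and 0.69 (limma adjusted p = 0.00745, 0.0107, 0.0187 and 0.0395). In the 8 fits that leave out an array, KRT18 lost its call in 5 (adjusted p up to 0.108) and CDH1 in 1, that without replicate 2 at 0 h (adjusted p = 0.0517), while KRT19, at -0.46, was called lower with the replicate number as a block (adjusted p = 0.0353). The list's median change was 0.55, and its mean log2 level lay between 11.35 and 11.52 at 0 h and between 11.76 and 12.05 at 24 h, and its part in the repair genes' change was not tested. COL1A2, COL3A1 and PDGFRB of fibroblasts, PTPRC and CD3E of leukocytes and VWF, CDH5 and TEK of endothelium were detected on no array. Of 4 named leukocyte markers, however, CD14 and CD68 were detected on all 8 arrays. Of 5 endothelial markers PECAM1 was detected on all 8, and KDR on 3 of 4 arrays at 0 h and each at 24 h. CD14 differed by -0.66 (limma adjusted p = 0.0898), and none of these genes was called. LUM of fibroblasts was detected on too few arrays to be tested. Of the 2 tested fibroblast markers, DCN was detected on no 0 h array and all 24 h arrays. It passed the detection filter only through the arrays where it was high, so no p-value is given for it. COL1A1 was lower by a log2 change of -1.22 (limma adjusted p = 0.0385), a call lost in 7 of those 8 fits (adjusted p up to 0.0945). The mean log2 level of DCN and COL1A1 lay between 5.75 and 6.77 at 0 h and between 6.25 and 7.25 at 24 h. The part of these 2 genes in the results was not tested.

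After 24 h of dexamethasone, 15 of the 27 tested repair genes were lower and none was higher (limma, adjusted p under 0.05). Across all 10964 tested genes, 5.34% were called lower and 4.72% higher. The repair genes were picked with earlier results of these data known, so setting them beside all genes is a description and not a test. Of 75 other tested genes of the same pathways, listed with the same knowledge, 20 were lower, with a median change of -0.20. The called repair genes were 1.57-fold to 4.01-fold lower, and on each of the 15 every 24 h array lay below every 0 h array. That held for 20 of the 27 tested genes, beside 9.1% of all tested genes. The median log2 change of the 27 was -0.84, against -0.01 over all tested genes, and 26 of the 27 estimates were negative. Of the 12 genes not called, 5 also had their groups apart and 11 had negative estimates.

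**Figure D1:**
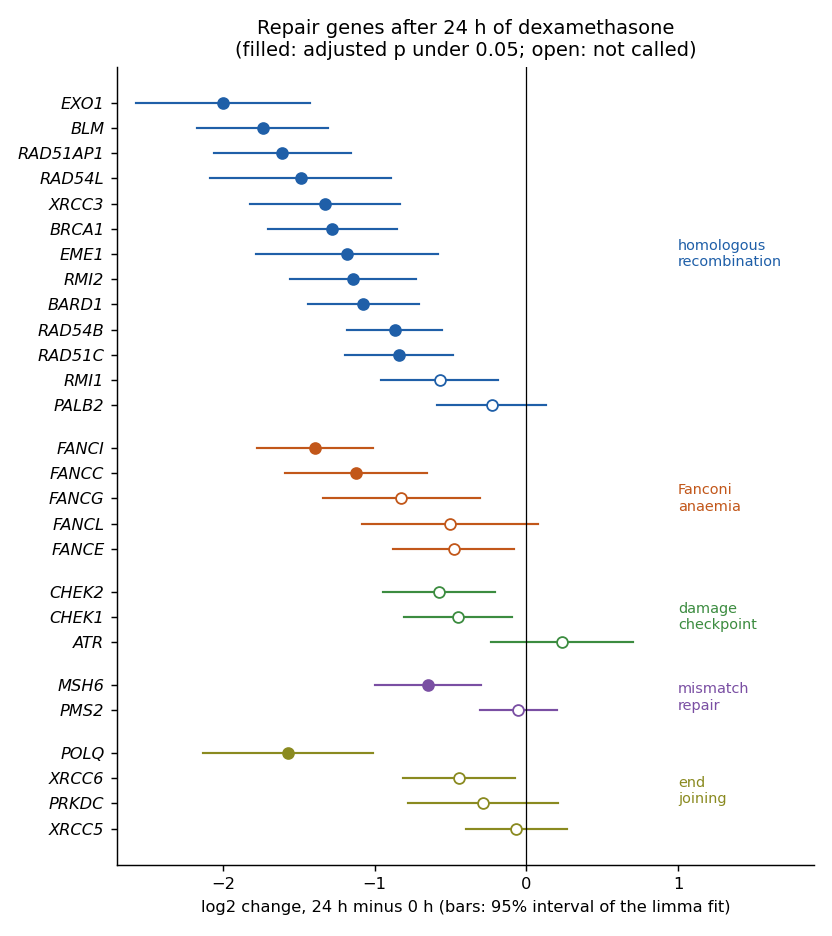
Log2 change (24 h minus 0 h) of the 27 tested repair genes, grouped by pathway, with the 95% interval of the limma fit over 4 arrays at each time. Filled points are the 15 genes with an adjusted p under 0.05, of which 11 belong to homologous recombination; ATR is the 1 gene with a positive estimate.

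The calls lay mostly in homologous recombination, where 11 of 13 tested genes were lower, with a median change of -1.18. In the Fanconi pathway 2 of 5 were lower (median -0.82), in mismatch repair 1 of 2 and in end joining 1 of 4 (median -0.36). None of the 3 tested checkpoint genes was called. An unadjusted limma p under 0.05 was found for 2 of them, beside 2518 of all 10964 tested genes. Differences between pathways were not tested.

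Among the enzymes that process the broken end and the joined chromosomes, EXO1, the exonuclease that resects ends and also acts in mismatch repair, changed most. At 0 h the level of EXO1 was 11.32, 11.09, 11.04 and 11.38 in replicates 1, 2, 3 and 4, an order kept below, and at 24 h it was 9.72, 9.32, 8.35 and 9.45. No 24 h array came within 1 log2 unit of a 0 h array. Its level at 24 h was 25% of that at 0 h, a log2 change of -2.0 ± 0.26 (SE, limma adjusted p = 0.000987). A dimmer EXO1 probe changed by -1.89 ± 0.26 (adjusted p = 0.00155), and another was detected on no array.

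BLM is the helicase that, with TOP3A, RMI1 and RMI2, dissolves crossed-over intermediates. BLM read 9.82, 9.56, 9.73 and 9.65 at 0 h and 8.41, 7.95, 7.41 and 8.03 at 24 h, and fell by 1.74 ± 0.19 (adjusted p = 0.000423), with the groups more than 1 log2 unit apart. RMI2 read 11.34, 11.27, 11.38 and 11.47 at 0 h and 10.49, 10.47, 9.64 and 10.30 at 24 h, a change of -1.14 ± 0.19 (adjusted p = 0.00366). RMI1 differed by -0.57 ± 0.17 and was not called (adjusted p = 0.0675), although its arrays did not overlap between the times. With the replicate number as a block it was called (adjusted p = 0.0238), and in all under 5 of 20 alternative fits. EME1, the partner of the nuclease MUS81, read 7.41, 7.46, 7.88 and 8.49 at 0 h and 6.79, 6.70, 6.03 and 6.98 at 24 h. The gap between its groups was small beside the spread at 0 h, and its change of -1.18 ± 0.27 (adjusted p = 0.0195) lost the call without 0 h replicate 3 (adjusted p = 0.0520) or without 24 h replicate 3 (adjusted p = 0.0515).

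RAD51AP1, which stimulates the pairing of the broken strand with its template, read 11.08, 11.09, 11.24 and 11.52 at 0 h and 9.76, 9.97, 9.03 and 9.72 at 24 h, and was 3.05-fold lower (adjusted p = 0.000876). RAD54L, a motor protein that remodels the joint, read 7.19, 7.26, 8.09 and 8.41 at 0 h and 6.20, 6.29, 6.0 and 6.50 at 24 h. Its 0 h arrays split by slide, with replicates 3 and 4 above replicates 1 and 2, and it was 2.81-fold lower (adjusted p = 0.00599). Its relative RAD54B changed by -0.87 ± 0.14 (adjusted p = 0.00338). XRCC3, which acts in strand exchange, read 8.50, 8.37, 8.80 and 9.17 at 0 h and 7.44, 7.36, 6.91 and 7.81 at 24 h, a change of -1.33 ± 0.22 (adjusted p = 0.00394). RAD51C, which binds XRCC3, changed by -0.84 ± 0.16 on its brightest probe (adjusted p = 0.00834) and by -0.70 ± 0.19 on a dimmer one (adjusted p = 0.0485), and a further RAD51C probe was detected on no array.

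BRCA1 and BARD1 form the ubiquitin ligase that opens the way to recombination. BRCA1 read 9.28, 9.41, 9.46 and 9.74 at 0 h and 8.42, 8.36, 7.63 and 8.35 at 24 h. The replicates at 24 h lay close together except replicate 3, and the change was -1.28 ± 0.19 (adjusted p = 0.00224). BARD1 changed by -1.08 ± 0.16, from 10.97 ± 0.20 to 9.90 ± 0.26 (SD over 4 arrays, limma adjusted p = 0.00254). PALB2, which joins BRCA1 to BRCA2, was not called, at -0.23 with a 95% interval of -0.59 to 0.13 (adjusted p = 0.470), and its arrays overlapped.

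**Figure D2:**
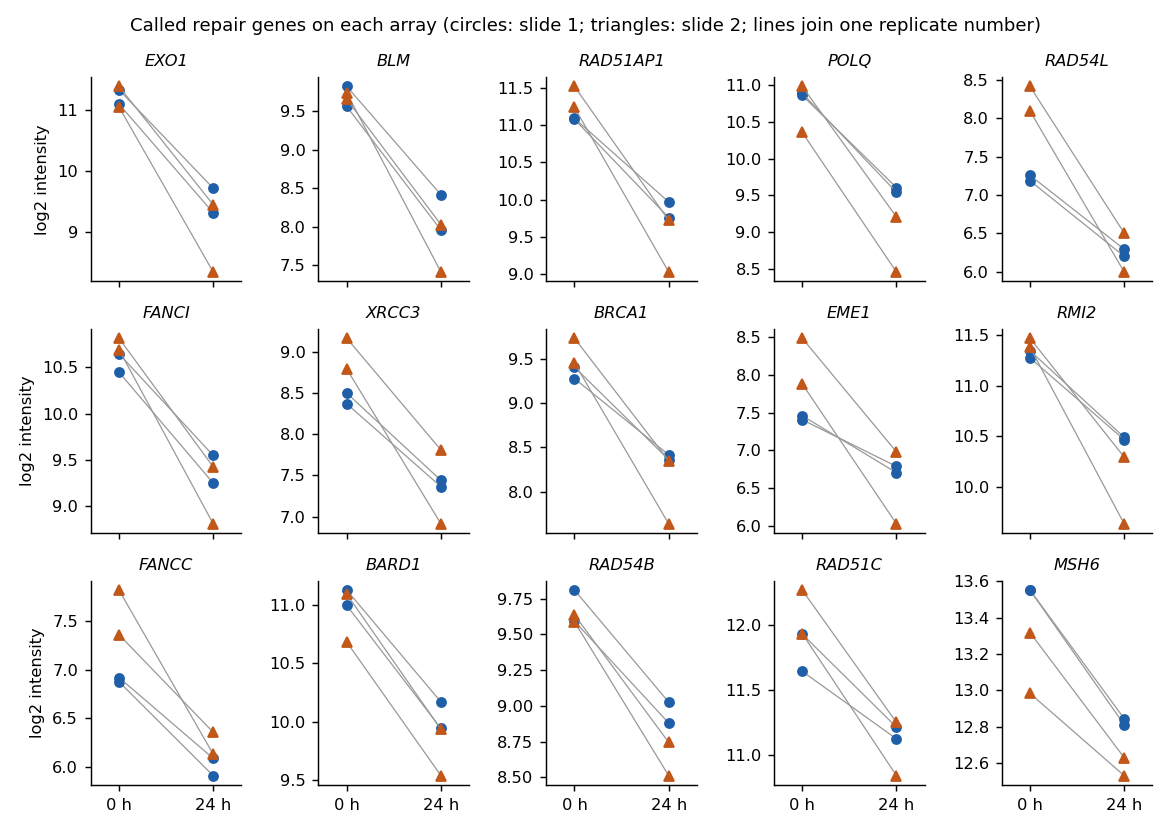
Normalised log2 intensity on each of the 8 arrays for the 15 repair genes called lower, each panel with its own axis, which does not start at 0. Circles are slide 1 and triangles slide 2, lines join arrays of the same replicate number, and every line falls; the lowest 24 h point is a slide 2 array in 14 of the 15 panels.

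In the Fanconi pathway the largest change was that of FANCI, the partner of FANCD2 in the clamp that is ubiquitinated at a cross-link. FANCI read 10.45, 10.65, 10.69 and 10.82 at 0 h and 9.25, 9.55, 8.81 and 9.42 at 24 h, and was 2.63-fold lower (adjusted p = 0.000796). FANCC, FANCE, FANCG and FANCL belong to the core complex that attaches the ubiquitin, FANCL as its ligase. FANCC changed by -1.12 ± 0.21, from 7.24 ± 0.44 to 6.12 ± 0.18 (SD over 4 arrays, limma adjusted p = 0.00746). FANCG, at -0.82 ± 0.23, just missed the threshold (adjusted p = 0.0520), and was called with the replicate block (adjusted p = 0.0234), without 0 h replicate 1 (adjusted p = 0.0429) or without 0 h replicate 2 (adjusted p = 0.0336). In all, FANCG was called under 10 of 20 alternative fits, among them that on the authors' deposited values (adjusted p = 0.0443). FANCE differed by -0.48 and FANCL by -0.51, neither called (adjusted p = 0.137 and 0.296), and FANCL was detected on only 2 of 4 arrays at 24 h.

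None of the checkpoint kinases passed the threshold in the main fit. CHEK1, which ATR activates at stalled forks, differed by -0.45 (adjusted p = 0.116), and CHEK2, which ATM activates at breaks, by -0.58 (adjusted p = 0.0545). On both, every 24 h array lay below every 0 h array, and the replicate block called both (adjusted p = 0.0314 and 0.0108). CHEK2 was also called without 24 h replicate 2 (adjusted p = 0.0289) and on the authors' deposited values (adjusted p = 0.0492). In all, CHEK2 was called under 9 and CHEK1 under 2 of 20 alternative fits. The CHEK2 gene has near-identical pseudogene copies that could share signal on its probe. ATR lay near background, with 2 of the 4 arrays at 0 h and 3 at 24 h detecting it, and differed by 0.24 with a 95% interval of -0.23 to 0.71.

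In mismatch repair, MSH6, which recognises single mismatches, read 13.55, 13.55, 12.98 and 13.32 at 0 h and 12.81, 12.84, 12.53 and 12.63 at 24 h. The groups were apart by a small gap, and the change of -0.65 ± 0.16 (adjusted p = 0.0275) lost its call on leaving out 0 h replicate 1 or 2, or 24 h replicate 1, 3 or 4 (adjusted p = 0.0543 to 0.0886). PMS2, which cuts the new strand, differed by -0.05 with an interval of -0.31 to 0.20, and by -0.15 on a dimmer probe. PMS2 has many pseudogene copies, so its probes may read them too.

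In end joining 1 of the 4 tested genes was lower. POLQ, the polymerase of the alternative route that anneals short repeats, read 10.86, 10.89, 10.36 and 10.98 at 0 h and 9.60, 9.54, 8.45 and 9.21 at 24 h. POLQ was 2.98-fold lower (adjusted p = 0.00311), with no overlap between the groups. The 3 genes of the classical route, which make the DNA-dependent protein kinase, were not called. XRCC5, the subunit Ku80, differed by -0.07 with an interval of -0.40 to 0.27, and XRCC6, the subunit Ku70, by -0.44 with an interval of -0.81 to -0.08. PRKDC, the catalytic subunit, differed by -0.29 on its brightest probe, and by -0.19 and -0.22 on the others. XRCC6 was called with the replicate block (adjusted p = 0.0249), though its groups overlapped.

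The replicate numbers paired the arrays, and with the number as a block 20 of the 27 repair genes were lower, beside 8.98% of all tested genes. The 5 added were RMI1, FANCG, CHEK1, CHEK2 and XRCC6, and each of the 15 stayed called. The slide as a block also gave 20, beside 7.14% of all tested genes, with FANCL (adjusted p = 0.0461) in place of XRCC6 (adjusted p = 0.0699). Within slide 1 alone, with 2 arrays at each time, 11 were lower (2.33% of all tested genes), with a median change of -0.69. Within slide 2 alone, also with 2 arrays at each time, 7 were lower (1.71% of all), with a median of -1.06. The estimate was more negative on slide 2 for 24 of the 27. In a test of the difference between the slides, added after the data had been seen, limma called none of them at an adjusted p of 0.05 (0% of all tested genes), and 2 had an unadjusted p under 0.05. These were RAD54L, which changed by -0.97 on slide 1 and -2.0 on slide 2, and RAD51AP1, at -1.22 and -2.0. Their unadjusted p was 0.0076 and 0.049 and their adjusted p 0.525 and 0.645 (limma interaction), so a slide difference was not established for either. Replicate 3 was the lowest of the 24 h arrays for 23 of the 27 genes and for 14 of the 15 called. Without it, 13 of the 27 were called, and the median change was -0.77.

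**Figure D3:**
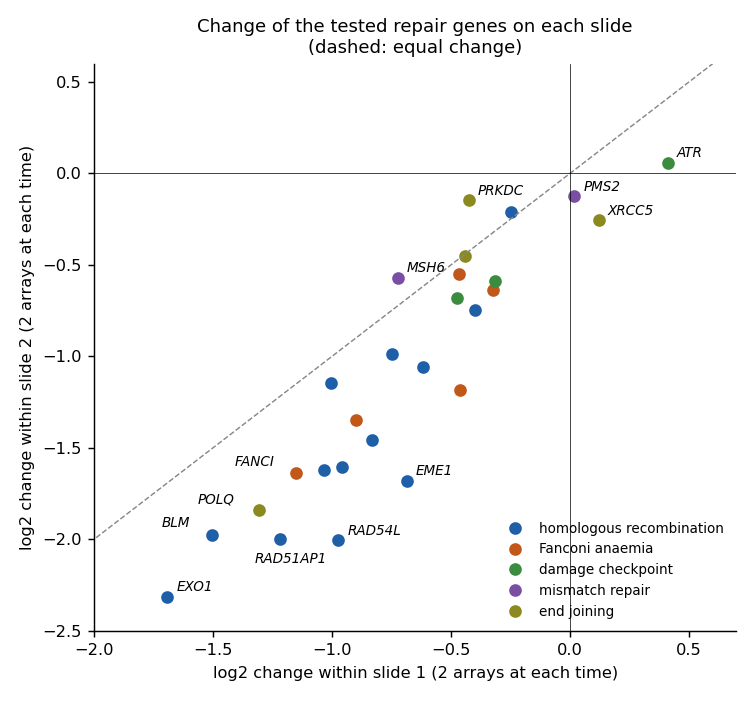
Log2 change of the 27 tested repair genes within slide 1 (horizontal axis) and within slide 2 (vertical axis), coloured by pathway, with 12 genes named. The dashed line marks equal change; 24 of 27 points lie below it, furthest for RAD54L and EME1.

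The same arrays were low in genes of proliferating cells. All 22 tested proliferation markers were lower at 24 h, with a median change of -1.20, among them MCM7, a subunit of the replicative helicase, at -1.32, TTK, a spindle checkpoint kinase, at -1.37, BIRC5 at -1.25 and AURKB at -1.39. Their mean log2 level lay between 11.5 and 12.0 on the 0 h arrays and between 9.96 and 10.7 on the 24 h arrays. That of the 27 repair genes lay between 9.81 and 10.1 and between 8.70 and 9.19. The median change of the markers was -0.85 on slide 1 and -1.61 on slide 2. On leaving out each array in turn, 18 to 22 of the markers were called, and CDC20, TYMS, CCNB1, CCNB2 and RRM2 lost the call in some of these fits. Their part in the repair genes' change was not tested, and in bulk RNA fewer cells in S phase and less RNA per cell cannot be told apart.

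Promoter windows from RefSeq (GRCh38.p14), of 250 bases before to 50 after each gene's start, were found for 22 of the 27 tested genes. FANCI, PRKDC, RAD54B, RMI2 and XRCC5 had none in the table used. Windows were searched on both strands for the E2F core (TTCCCGC, or its variants TTGGCGC, then TTCGCGC, and finally TTGCCGC), the cell cycle homology region (TTTGAA), the CCAAT box and the core spacing of a glucocorticoid response element (ACANNNTGT). The letters of an E2F core and a CCAAT box can overlap. The 3 called genes of largest fall and the 2 uncalled genes of highest adjusted p, among those with 1 window, are shown, with E2F core, cell cycle homology region and CCAAT box letters in capitals. They are BLM at chr15:90717096-90717395 (plus strand), RAD51AP1 at chr12:4538640-4538939 (plus strand), POLQ at chr3:121545939-121546238 (minus strand), ATR at chr3:142578684-142578983 (minus strand) and PALB2 at chr16:23641261-23641560 (minus strand).
BLM: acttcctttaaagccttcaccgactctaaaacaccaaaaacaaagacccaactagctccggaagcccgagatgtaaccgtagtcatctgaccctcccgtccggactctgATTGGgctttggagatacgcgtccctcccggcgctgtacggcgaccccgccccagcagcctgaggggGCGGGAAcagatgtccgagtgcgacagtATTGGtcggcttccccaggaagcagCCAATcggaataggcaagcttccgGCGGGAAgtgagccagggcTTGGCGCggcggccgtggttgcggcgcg
RAD51AP1: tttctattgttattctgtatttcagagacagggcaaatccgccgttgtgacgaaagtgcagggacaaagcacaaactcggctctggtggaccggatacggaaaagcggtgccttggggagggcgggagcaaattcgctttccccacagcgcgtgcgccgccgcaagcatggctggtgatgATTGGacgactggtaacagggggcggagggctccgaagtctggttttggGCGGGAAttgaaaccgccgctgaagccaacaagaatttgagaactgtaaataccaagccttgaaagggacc
POLQ: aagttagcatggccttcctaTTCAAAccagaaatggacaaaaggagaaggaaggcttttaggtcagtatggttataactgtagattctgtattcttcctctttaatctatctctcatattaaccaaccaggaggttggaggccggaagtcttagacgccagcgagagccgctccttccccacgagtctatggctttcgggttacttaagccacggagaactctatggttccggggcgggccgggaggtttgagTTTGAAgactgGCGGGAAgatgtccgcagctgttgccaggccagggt
ATR: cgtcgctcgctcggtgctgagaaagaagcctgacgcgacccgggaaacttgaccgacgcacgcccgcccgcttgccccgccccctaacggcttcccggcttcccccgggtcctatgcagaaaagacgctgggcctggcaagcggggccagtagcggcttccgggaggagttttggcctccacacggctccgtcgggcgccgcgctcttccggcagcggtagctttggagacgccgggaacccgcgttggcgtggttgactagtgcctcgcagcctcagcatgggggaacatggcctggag
PALB2: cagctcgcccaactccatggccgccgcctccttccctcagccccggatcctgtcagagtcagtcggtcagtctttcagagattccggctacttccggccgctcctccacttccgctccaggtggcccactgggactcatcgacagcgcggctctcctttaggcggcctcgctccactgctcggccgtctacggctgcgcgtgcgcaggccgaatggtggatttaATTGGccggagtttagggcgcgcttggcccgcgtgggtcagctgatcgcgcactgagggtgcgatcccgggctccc
The BLM window held 3 matches to the E2F core and 3 CCAAT boxes, that of RAD51AP1 1 of each, and that of POLQ 1 E2F core and 2 matches to the cell cycle homology region. In POLQ the E2F core began 15 bases and one homology match 4 bases after the start site. The ATR window held none of these letters, and the PALB2 window 1 CCAAT box.

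An E2F core was present in a window of 11 of the 12 called repair genes that had one, RAD51C being the exception, and of 6 of the 10 uncalled ones. By gene it was present for 24.3% of all tested genes, 39.3% of those called lower, 52.9% of the proliferation markers and 15.3% of all genes with a window. The cell cycle homology region was found for 2 of the 12 called repair genes, POLQ and FANCC, and for none of the uncalled ones, and for 14.4% of all tested genes. The CCAAT box was found for 6 of 12 and 6 of 10, and for 44.0% of all tested genes. The response element core was found for 1 repair gene, BRCA1, and for 4.59% of all tested genes. These shares describe letters in windows, and no test was made of them.

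**Figure D4:**
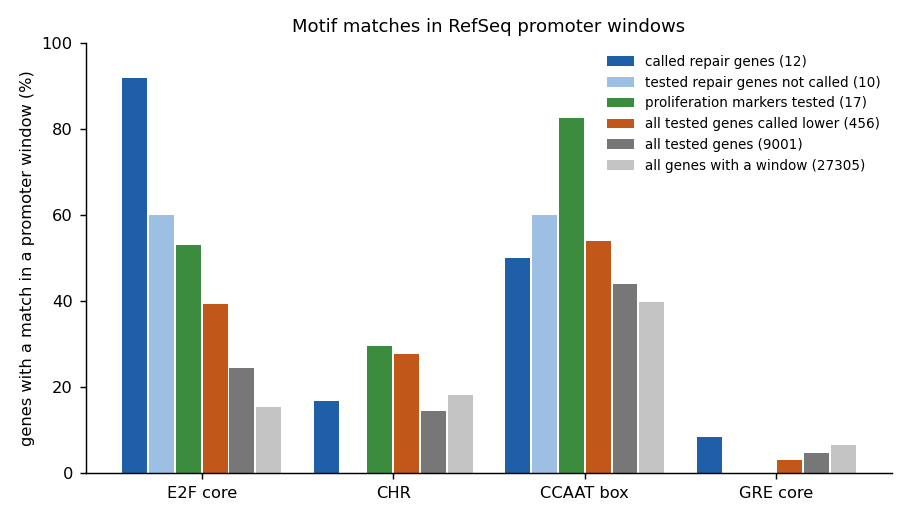
Share of genes with at least 1 match to each motif in a RefSeq promoter window, in percent, for 6 sets of genes, with the number of genes that have a window in brackets; CHR is the cell cycle homology region and GRE core the response element core. The E2F core bar of the called repair genes stands at 91.7%, that of the uncalled ones at 60.0% and that of all tested genes at 24.3%.

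Beyond the 36, 105 other genes of these pathways were listed, of which 75 were tested. Of these, 20 were lower and none higher, beside 5.34% and 4.72% of all tested genes. The median change of the 75 was -0.20. With the replicate block 27 were lower, beside 8.98% of all tested genes. Leaving out 0 h replicate 3, or 24 h replicate 2, 3 or 4, gave 11, 12, 10 and 13, slide 1 alone gave 1 and slide 2 alone 0, so this count rested on having all arrays.

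Of 29 other recombination genes 9 were lower, among them PSMC3IP, which helps strand pairing, at -1.68 ± 0.31 (adjusted p = 0.00677) and MCM8, of a helicase that acts in recombination, at -1.07 ± 0.18 (adjusted p = 0.00361). RECQL4, a helicase related to BLM, changed by -1.10 and MMS22L, which acts in recombination at stalled forks, by -0.84. These 4 kept the call on leaving out any array, and each of the others called lost it in some of these 8 fits. MRE11, the nuclease that works with RAD50 and NBN, at -0.61, lost it without any of 7 of the 8 arrays (adjusted p up to 0.121). FIGNL1 lost it in 2 fits, RPA1 in 3, RPA3 in 7 and RPA2 in all 8. Of 18 other Fanconi and cross-link genes 6 were lower. The log2 change was -1.10 for RFWD3, a ubiquitin ligase, -0.88 for UBE2T, the enzyme that supplies ubiquitin to FANCL, and -0.69 for USP1, which removes it again. CENPX, at -1.01, lost its call without 0 h replicate 3 or 4 or 24 h replicate 2 or 3 (adjusted p up to 0.0827). FAAP24 lost its call in 5 of the fits that leave out an array, and DCLRE1A in 7.

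Of 18 other checkpoint genes 4 were lower, and 7 with the replicate block, which added WEE1, RAD9A and TELO2 (adjusted p = 0.0270, 0.0293 and 0.0226). TOPBP1, the activator of ATR, changed by -0.82 (adjusted p = 0.00372). TIMELESS and TIPIN, which together protect forks, changed by -1.12 and -1.10. ATRIP, the partner of ATR, changed by -0.51 and lost its call without any of 7 arrays, all but 0 h replicate 2 (adjusted p up to 0.129). Of 3 other mismatch repair genes MSH5, a relative of MSH6 known from meiosis, was lower at -0.45, and lost the call without any of the 8 arrays (adjusted p = 0.0501 to 0.122). None of 7 other end joining genes was called by limma, with 2 at an unadjusted p under 0.05, beside 2518 of all 10964 tested genes. The replicate block called 3 of the 7 lower, PAXX, TDP1 and XRCC1 (adjusted p = 0.0249, 0.0464 and 0.0493), beside 8.98% of all tested genes.

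**Figure D5:**
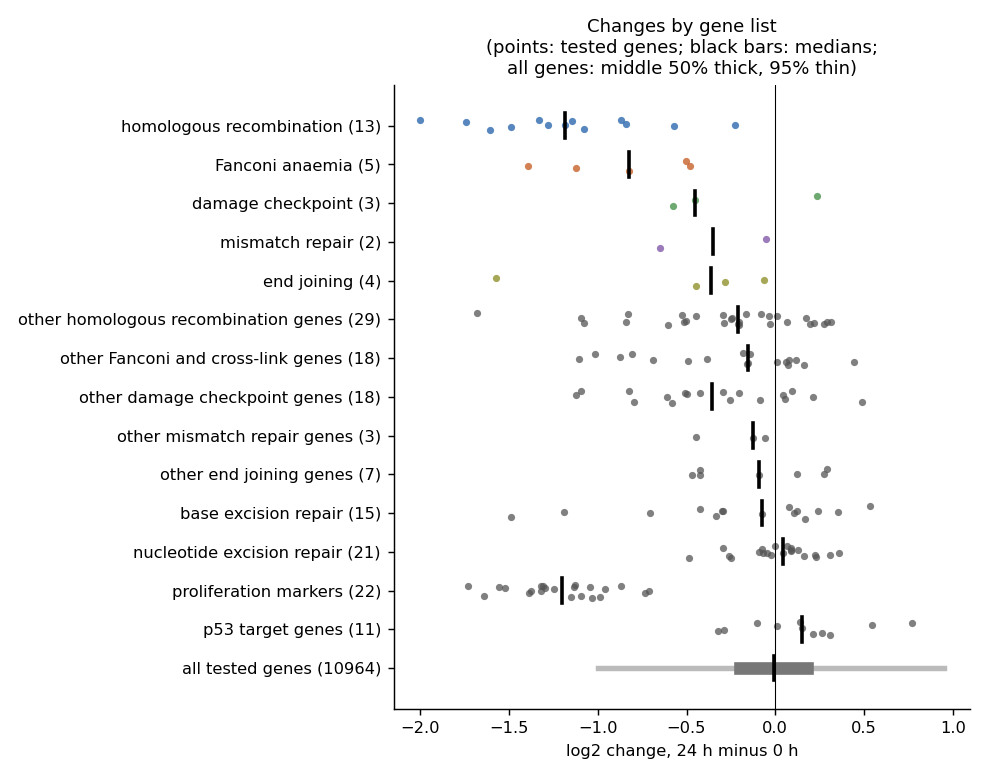
Log2 change (24 h minus 0 h) of tested genes by list, with the number tested in brackets; coloured points are the 27 repair genes, grey points the other lists, and black bars the medians. The medians run from -1.20 for the proliferation markers and -1.18 for recombination to 0.15 for p53 targets, and the bottom bars span the middle 50% (thick) and 95% (thin) of all 10964 tested genes.

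Of 15 base excision repair genes 3 were lower and 1 higher, beside 5.34% and 4.72% of all tested genes. The list's median was -0.08. The replicate block added NEIL2, at -0.43 (adjusted p = 0.0443). The lower genes were FEN1, the flap nuclease that also trims replication fragments, at -1.49, LIG1, the ligase that seals them, at -1.19, and PARP2 at -0.70. PARP3 was higher at 0.53. PARP2 lost the call in 6 of the 8 fits that leave out an array (adjusted p up to 0.0754), and PARP3 in 5 (up to 0.0785). Of 21 nucleotide excision repair genes, 1 was lower (4.76%), near the 5.34% of all tested genes. This was RAD23B at -0.49, which lost the call without any of 7 arrays (adjusted p up to 0.135). The median of that list was 0.04.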

How the data were processed

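Total RNA of A549 shGLP cells at 0 h and 24 h of dexamethasone was measured on 8 one-colour Illumina arrays, 4 at each time. The deposited table held, per the file headers, each probe's linear bead intensity with its detection p-value on every array, before normalisation. The authors' deposited log2 values, for which the submitters' processing notes name limma, served as an alternative; their normalisation steps are not stated there.

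Background was estimated from the detection p-values (nec of limma 3.58.1 in R 4.3.3, offset 16), and the 22011 probes also in the authors' table were quantile normalised and taken to log2. Probes with a detection p under 0.05 on at least 4 of 8 arrays (14533) were fitted with lmFit and eBayes, and p-values were adjusted over all of them by Benjamini-Hochberg, with a threshold of 0.05. The brightest tested probe stood for a gene, which gave 10964 genes. Symbols came from the platform annotation, which gave 19759 probes 1 symbol and 2252 none. They were updated to the current RefSeq symbol where the Entrez gene identifier matched. Arrays limit precision by their number. The fit was also run on simulated data with independent arrays. Those lack the pairing of the real arrays, so that run does not test the calls given here.

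Same-numbered arrays deviated together from their group means (correlations of 0.37 to 0.46 over probes for the 4 numbers), so a replicate block was an alternative whose values stand beside named genes whose call it changed and counts it moved by over 1.5 times. The other alternatives were another offset, no background correction, median scaling, other probe filters and probe rules, a trended robust fit, the slide as a block, each slide alone and each array left out. All repair genes were named, with values by array for the 10 called genes of largest change and the called gene of smallest p in each pathway. Of every other list, the rule named at most 4 called genes of smallest p and any called against the list's direction. MRE11, RMI1 and other genes given for a lost or gained call were chosen after their values were seen. CD14, TNFRSF10B, CDKN1A and MDM2, which were not called, were also named outside that rule. The members and lists were chosen with earlier results of these data known.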

Additional observations from a re-analysis of the deposited data

Results flagged for a closer look

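In 54 groups of 4 arrays (27 repair genes at 2 times), 2 held an array whose gap to its nearest neighbour, over the group's range, passed Dixon's critical value for 4 values, and chance gives about 1 in 20 groups. BRCA1 read 7.63 in 24 h replicate 3, where the other 24 h arrays lay between 8.35 and 8.42. Without that array BRCA1 still fell, with a log2 change of -1.10 (limma adjusted p = 0.00292). XRCC5 read 10.56 in 24 h replicate 2, above the others at 10.21 to 10.24, and without it the change was -0.15 (adjusted p = 0.658).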

How the results depend on the processing

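Under 20 alternatives no repair gene was called higher. The number called lower was 15 to 20 under the alternatives that kept all arrays, and 13 to 16, with a median change of -0.94 to -0.73, when each array was left out in turn (higher 0 in each). Slide 1 alone gave 1 other pathway gene lower, and 256 lower and 239 higher of all tested genes. Slide 2 alone gave 7 repair genes lower (median -1.06), 0 other pathway genes, and 187 lower and 214 higher of all. These fits hold 2 arrays at each time. With the replicate block, 985 of all tested genes were lower and 876 higher, against 585 and 518 without it, and beyond the calls named above it changed no call among the repair genes. Leaving out each array gave 10 to 15 other pathway genes lower and 0 higher, and 407 to 539 lower and 354 to 490 higher of all tested genes. Estimates turned positive on slide 1 alone for PMS2 (0.018) and XRCC5 (0.12), neither called under any alternative. Without background correction the median change of the 27 was -0.74, against -0.84. The dim genes RAD54L, FANCC and EME1 then changed by -0.90, -0.62 and -0.74, against -1.49, -1.12 and -1.18, and stayed called. The size of their fall thus depended on the background step. EXO1, a bright gene, changed by -1.84 against -2.0. The causes were not tested. RAD50, NBN, ATM and, in part, ATR and FANCL lay at background, where these arrays give little or no measure of change.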

Other observations

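Targets of p53, the factor that damage signalling activates, were read as a separate list. Of 11 tested, 1 was higher at 24 h, GADD45A, a stress-induced growth arrest gene, which went from 11.16 to 11.93, a log2 change of 0.77 ± 0.14 (limma adjusted p = 0.00687). Across all tested genes 4.72% were called higher. No target was called lower, and the median change was 0.15, with 3 of the 11 estimates negative. On TNFRSF10B, at -0.32 (limma adjusted p = 0.138), every 24 h array lay below every 0 h array, as for 9.1% of all tested genes. CDKN1A, the cyclin-dependent kinase inhibitor, differed by 0.26 (adjusted p = 0.386) and MDM2, the ligase that degrades p53, by 0.14 (adjusted p = 0.792), neither called.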
